A study of Homo sapiens with 4 samples.

Results

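The genes described here are 35 effectors of mRNA decay. They are the CNOT genes, named for the CCR4-NOT complex, other deadenylases, the BTG/TOB adaptors and the decapping and P-body factors with the exonuclease XRN1. The list also holds the cytoplasmic poly(A) binding proteins and RNA-binding proteins that recruit these enzymes. The 35 were chosen by name, as a list, out of 60554 annotated genes, and all 35 were found in the count table. All 35 also passed the minimum used here, a mean normalised count of 50, which 12662 genes passed. What follows concerns their mRNAs, as RNAs found on beads or in lysate, and not the amount or activity of the proteins. The samples came from IGROV1-R10, a human ovarian cancer cell line. Every group received a miRNA duplex at 60 nM that carried biotin, a tag held by streptavidin: miR-491-5p in one transfection, and a miRNA of the worm Caenorhabditis elegans as the control in the other, which the design text names cel-miR-65. After a spin that removed nuclei and debris, 10% of the lysate became the input, and the remainder spent 4 h with streptavidin beads and 5 washes to give the pull-down. The 4 groups (miR-491-5p input, miR-491-5p pull-down, control input and control pull-down) have 1 library each. Each library is a pool of RNA from 3 experiments, so the spread between experiments cannot be measured and no difference between the miRNAs has a p-value.

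An mRNA usually begins its decay by losing its poly(A) tail, first trimmed by PAN2-PAN3 and then removed by CCR4-NOT. The DCP2 enzyme, helped by activators such as DCP1A, EDC4, PATL1 and the LSM ring, then takes off the cap, and XRN1 digests the exposed body. A miRNA bound to an Argonaute protein enters this route through TNRC6 proteins, which contact PAN3 and CCR4-NOT, and several of the decay factors gather in cytoplasmic granules called P-bodies.

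The mature strand of the transfected human miRNA is shown because its seed, bases 2 to 8, given in capitals, is what pairs with a canonical target. RefSeq places its 22 bases on GRCh38.p14 at chr9:20716120-20716141, on the plus strand, and reads them as follows.
hsa-miR-491-5p: aGUGGGGAacccuuccaugagg
An mRNA that matches this seed holds the letters UCCCCAC. The members' transcripts were not searched for them, and the control miRNA is named only.

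The gene counts summed to between 47679684 and 62582646 per library, and the 35 genes took 0.667% and 0.645% of them in the inputs of miR-491-5p and the control, and 0.831% and 0.818% in the corresponding pull-downs. The 95% intervals given below come from the counts and so hold counting error alone, because reads that carry no molecular identifier cannot be taken as separate molecules and there is 1 library in a group. Of 10 hepatocyte markers, the control input held 2820 counts with none at 0, among them 1298 of ALB, the gene for albumin. The other libraries held 20 to 38 counts of these markers, with 3 to 5 of the markers at 0. The 7 fibroblast markers summed to 280 counts in the input of miR-491-5p and 591 in that of the control, and to 68 and 63 in the matching pull-downs. Between the inputs COL1A1 was at 40 and 193, COL1A2 at 64 and 170, COL3A1 at 118 and 188, PDGFRB at 0 and 6, and THY1 at 4 and 6. DCN, at 44 and 20, and LUM, at 10 and 8, went the other way. The immune markers summed to 18 to 55 counts per library. Of 10 epithelial genes, PAX8, KRT8, KRT18, KRT19 and EPCAM had at least 7352 counts in all 4 libraries. Others were lower, at 694 to 1302 counts for WT1, 188 to 599 for CDH1, 120 to 206 for KRT7 and 84 to 337 for MUC16. MSLN had no clear match by position. The part of the hepatocyte and fibroblast RNA in the results was not tested. With the miR-491-5p input in place of the control input, the enrichment equals the ratio of the pull-downs. Scaling the libraries by their total counts instead of DESeq2 size factors raises the median enrichment of all genes by 0.18 on the log2 scale, the pull-down ratio by 0.16, the miR-491-5p bead ratio by 0.32 and the control bead ratio by 0.14. Within these libraries, fewer cells with an mRNA and less of it per cell cannot be told apart.

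In TPM units (counts per exonic base, scaled to one sum in every library), which allow genes to be set side by side, the 35 mRNAs ran in the control input from 2.65 for DCP1B to 1310 for PABPC1, with a median of 45.9. PABPC1, the main cytoplasmic poly(A) binding protein, was followed by CNOT1, the scaffold of CCR4-NOT, at 255 TPM, and by PABPC4 at 196. The AU-rich element binding proteins ZFP36L1 and ZFP36L2 stood at 167 and 164 TPM, the helicase DDX6 at 123 and the decapping enzyme DCP2 at 111. At the low end were PAN2 with 14.0 TPM, the decapping enhancer EDC3 with 9.80, the CCR4-NOT subunit CNOT3 with 4.03 and the DCP2 activator DCP1B. In the miR-491-5p input PABPC1 again led at 1290 TPM and DCP1B was again last at 3.14, and 32 of the 35 genes had at least 10 TPM in each input. The order is that of single libraries, and neighbours in it cannot be ranked by a replicate spread.

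**Figure D1:**
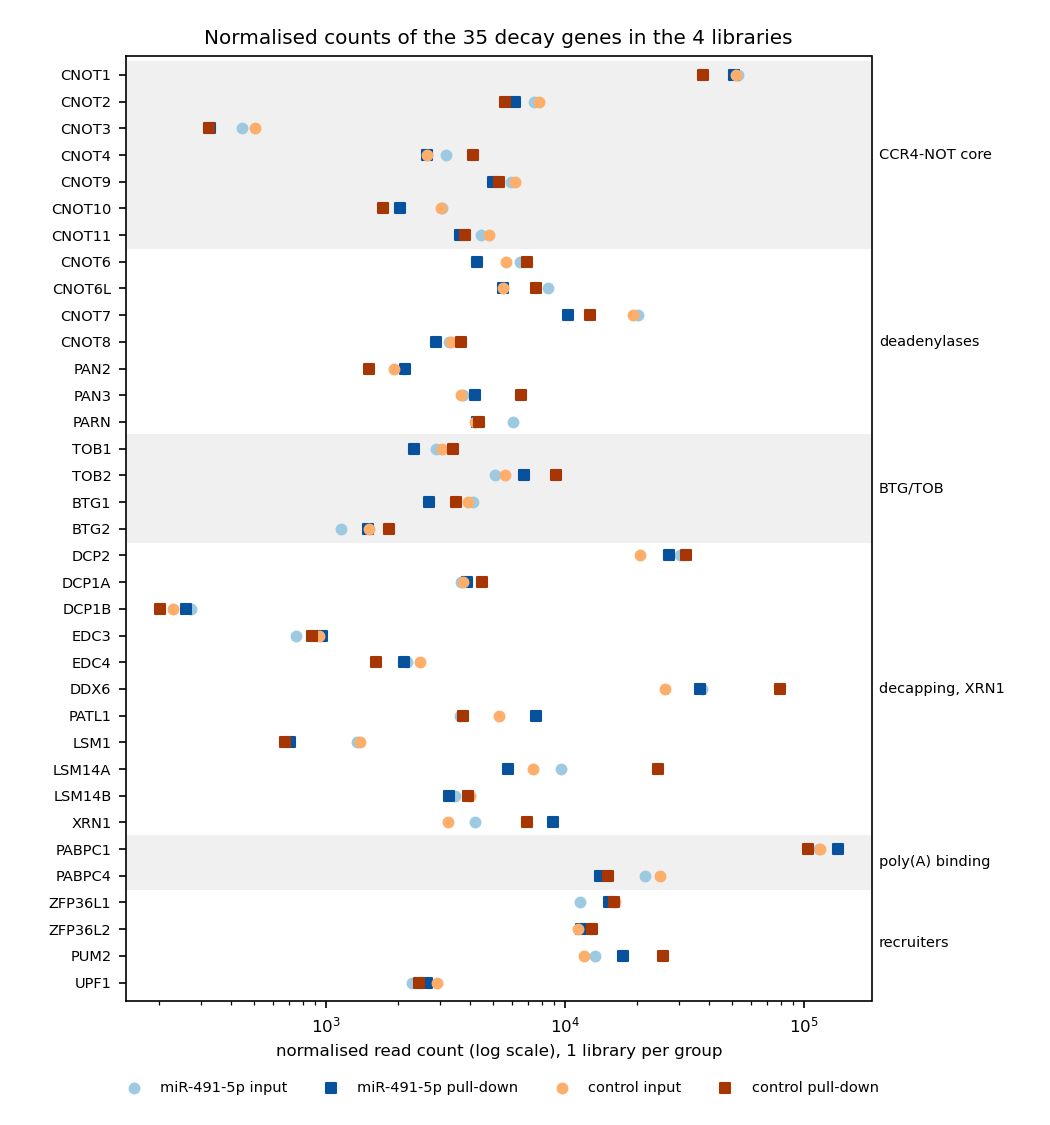
Normalised read counts (log scale, DESeq2 size factors) of the 35 genes, with circles for inputs, squares for pull-downs, blue for the miR-491-5p libraries and orange for control libraries, 1 library per point. DDX6 and LSM14A lie far to the right in the control pull-down alone, at 79708 and 24416, and PATL1 lies highest in the miR-491-5p pull-down, at 7568.

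The design text defines enrichment as the miR-491-5p over control ratio in the pull-downs divided by the same ratio in the inputs, which asks which mRNAs came down with miR-491-5p beyond what their levels give. A gene is called here when it differs by 2-fold or more and its counting interval excludes 0. Of the 35 genes, 1 was called higher, PATL1, against 4.46% of all 12662 genes, and 3 were called lower, LSM14A, DDX6 and CNOT6L, against 5.32% of all genes. The median of the 35 was -0.03 on the log2 scale and that of all genes 0.00, and 31 of the 35 lay within the central 90% of all genes. In the ratio of the pull-downs alone, PATL1 was called higher (2.50% of all genes) and LSM14A and DDX6 lower (3.17%), with a median of -0.11 against 0.01 for all genes. In the ratio of the inputs no member was called, where 0.727% of all genes were called higher and 0.513% lower. The input ratios ran from -0.55 for PATL1 to 0.62 for CNOT6L. Without the control input, the enrichment changed sign for CNOT11 (0.05 to -0.06), BTG2 (0.09 to -0.30), XRN1 (-0.01 to 0.37), PABPC4 (0.10 to -0.11) and ZFP36L1 (0.41 to -0.08).

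PATL1, at chr11:59636716-59668980 on the minus strand (GRCh38, as are the positions below), encodes a scaffold that joins the decapping enzyme to the LSM ring. Its normalised count was 3621 in input and 7568 in pull-down with miR-491-5p, against 5309 in input and 3734 in pull-down with the control. The miR-491-5p pull-down was thus the highest library and the miR-491-5p input the lowest, with the control running the other way. The pull-down ratio was 1.02 on the log2 scale (interval 0.97 to 1.07) and the input ratio -0.55 (-0.62 to -0.49). The enrichment was 1.57 (1.49 to 1.65), or 2.97-fold, at percentile 98.9 of all genes. With the miR-491-5p input used for both pull-downs it was 1.02, and pull-down over input for the control went from -0.51 to 0.04. For scale, BCL2L1, an anti-apoptotic gene known as a target of miR-491-5p, had an enrichment of 1.27, a pull-down ratio of 0.74 and an input ratio of -0.53.

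LSM14A, at chr19:34172504-34229515 on the plus strand, encodes an RNA-binding protein needed for P-bodies. Its normalised count was 9633 (input) and 5750 (pull-down) for miR-491-5p, and 7368 (input) and 24416 (pull-down) for the control. The control pull-down stood above the other 3 libraries, and the miR-491-5p pull-down was the lowest. The pull-down ratio was -2.09 (-2.12 to -2.05), the input ratio 0.39 (0.34 to 0.43) and the enrichment -2.47 (-2.53 to -2.41), at percentile 0.4 of all genes. DDX6, at chr11:118747766-118791149 on the minus strand, encodes the helicase that binds CNOT1 and brings translational repression and decapping together. Its normalised count was 37337 before and 36675 on the beads with miR-491-5p, and 26306 before and 79708 on the beads with the control. Here too the control pull-down stood apart, while the miR-491-5p input and pull-down were nearly alike. The DDX6 pull-down ratio was -1.12 (-1.14 to -1.10), the input ratio 0.51 (0.48 to 0.53) and the enrichment -1.63 (-1.65 to -1.60), at percentile 1.6. Using the miR-491-5p input in both denominators, the enrichment became -2.09 for LSM14A and -1.12 for DDX6. Scaled by total counts, the DDX6 pull-down ratio of -0.96 no longer reached 2-fold.

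**Figure D2:**
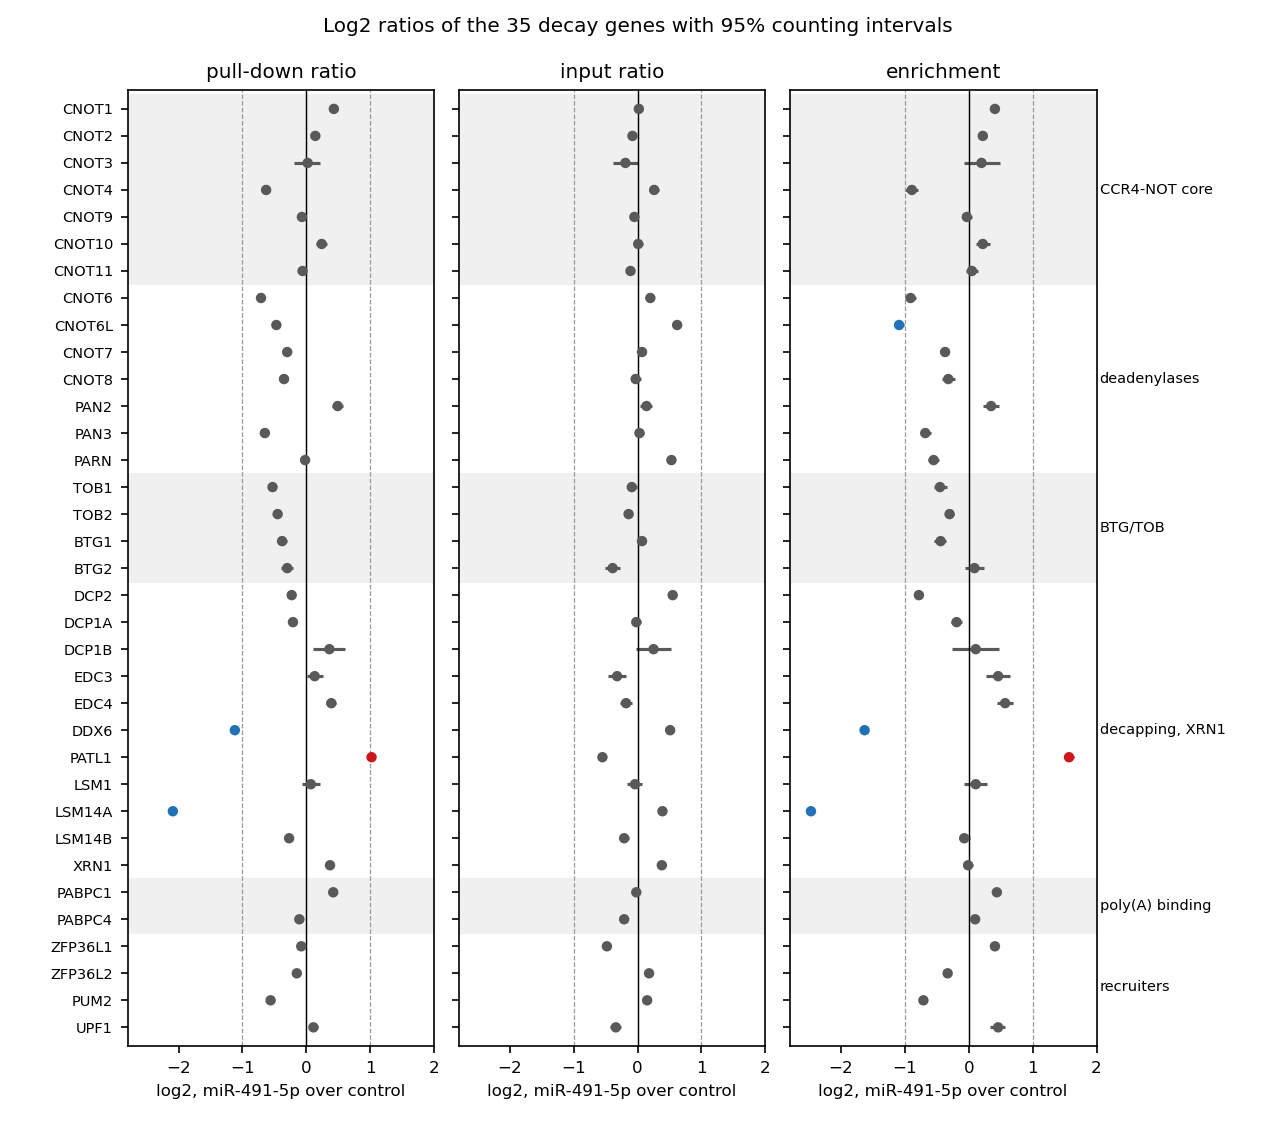
Log2 ratios of miR-491-5p over control as pull-down ratio, input ratio and enrichment for each gene, with 95% counting intervals as bars, red for genes called higher, blue for genes called lower and dashed lines at 2-fold. PATL1 alone is called higher, LSM14A and DDX6 are called lower in pull-down and enrichment, CNOT6L only in enrichment, and no input ratio reaches 2-fold.

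None of the 7 genes grouped here as the CCR4-NOT core was called in the enrichment. Their median was 0.20, with values from -0.89 to 0.41. CNOT1 had normalised counts of 52805 in input and 50803 in pull-down with miR-491-5p, against 51935 in input and 37667 in pull-down with the control. The inputs were close together, and the control pull-down was the low library. The enrichment of CNOT1 was 0.41 (0.38 to 0.43). CNOT1 shares 11.2% of its exonic bases with other annotated genes, and reads in shared bases were not counted. CNOT2 and CNOT10, at 0.22 each, were also above 0, while the intervals of CNOT3, CNOT9, which contacts TNRC6, and CNOT11 spanned 0. CNOT4, a ubiquitin ligase, was the exception below 0, with 3177, 2654, 2652 and 4119 normalised counts in the order miR-491-5p input and pull-down, control input and pull-down. Its control pull-down was the highest of the 4, and its enrichment was -0.89 (-1.0 to -0.79), or -0.63 without the control input.

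Of the 7 genes for deadenylases and PAN3, 6 had an enrichment below 0 with an interval that excluded it, and the median was -0.55. Of all genes 35.3% had such an interval, but intervals narrow as reads increase and read number was not matched. These 6 kept that side of 0 when scaled by total counts, and in the pull-down ratio 5 had intervals below 0, against 37.5% of all genes, with a median of -0.35. CNOT6 and CNOT6L encode alternative nuclease subunits of CCR4-NOT. CNOT6L, at chr4:77713387-77819615 on the minus strand, had normalised counts of 8464 (input) and 5489 (pull-down) for miR-491-5p, and 5501 (input) and 7594 (pull-down) for the control. The miR-491-5p input and the control pull-down were high and the remaining libraries low, so the enrichment of -1.09 (-1.16 to -1.02) drew on an input ratio of 0.62 as well as a pull-down ratio of -0.47. It was no longer called with the miR-491-5p input in both denominators, at -0.47, or when scaled by total counts, at -0.91. CNOT6 had 6509, 4267, 5669 and 6961 normalised counts in the same order, and an enrichment of -0.91 (-0.98 to -0.83). CNOT7 and CNOT8, the other alternative nucleases of the complex, had smaller values of -0.37 and -0.32. PAN3, the adaptor of the PAN2 nuclease, had 3746, 4189, 3670 and 6558 normalised counts and an enrichment of -0.68 (-0.76 to -0.59), the control pull-down again being the high library. PAN2 was the gene above 0, at 0.35 (0.22 to 0.48). PARN, another poly(A) ribonuclease, had an enrichment of -0.55 that came from the inputs, whose ratio was 0.53, since its pull-down ratio was -0.02.

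TOB1, TOB2, BTG1 and BTG2 encode antiproliferative adaptors that tie CCR4-NOT to its substrates. All 4 were lower with miR-491-5p than with the control among the pull-downs, by ratios of -0.53, -0.45, -0.38 and -0.30, and they kept that side of 0 when scaled by total counts. Of all genes, 49.1% lay below 0 in that ratio. None reached 2-fold. TOB2 had normalised counts of 5100 before and 6759 on the beads with miR-491-5p, and 5636 before and 9209 on the beads with the control. TOB2 was higher on both beads than in the matching input. BTG2 differed most between the inputs, at 1154 normalised counts for miR-491-5p against 1511 for the control (input ratio -0.39, -0.51 to -0.27), and its enrichment of 0.09 had an interval that spanned 0.

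In the 11 decapping and P-body genes the enrichment ran over the whole range of the members, from LSM14A to PATL1. DCP2 had normalised counts of 30328 in input and 27279 in pull-down with miR-491-5p, against 20692 in input and 31991 in pull-down with the control. The control input was the low library, and the enrichment of -0.78 (-0.82 to -0.75) became -0.23 with the miR-491-5p input in both denominators. Its activator DCP1A was near 0 at -0.19 (-0.28 to -0.10), and for DCP1B, with 178 to 320 reads in a library, the interval ran from -0.26 to 0.47. The decapping enhancers EDC3 and EDC4 had enrichments of 0.46 (0.27 to 0.65) and 0.57 (0.45 to 0.70), which without the control input became 0.13 and 0.39. EDC4 shares 22.6% of its exonic bases with other annotated genes and EDC3 13.7%, and reads in shared bases were not counted. LSM14B, the paralog of LSM14A, had 3476, 3257, 4008 and 3938 normalised counts, which differ little, and an enrichment of -0.07 (-0.16 to 0.02). The XRN1 enrichment was -0.01 (-0.09 to 0.07), as its levels with miR-491-5p exceeded those with the control by a like amount in pull-down (0.37) and input (0.38).

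PABPC1 had normalised counts of 115700 (input) and 138492 (pull-down) for miR-491-5p, and 117183 (input) and 103674 (pull-down) for the control. The miR-491-5p pull-down was the highest library and the inputs were close, for an enrichment of 0.44 (0.42 to 0.45). PABPC1 has near-identical copies in the genome, and reads that fit several places were not counted, so its values are uncertain. PABPC4 was close to 0, at 0.10 (0.06 to 0.14). Among the recruiters, PUM2, a Pumilio protein that binds the untranslated ends of mRNAs, had 13409, 17434, 12070 and 25684 normalised counts in the order of libraries used above. Both beads exceeded their inputs, the control beads by more, and the enrichment was -0.71 (-0.76 to -0.66). ZFP36L1 differed between the inputs, with 11540 normalised counts for miR-491-5p against 16141 for the control, while its pull-downs held 15254 and 16096. UPF1, the helicase of nonsense-mediated decay, had an enrichment of 0.46 (0.34 to 0.57), and ZFP36L2 had -0.33 (-0.38 to -0.28). Without the control input these became 0.11 and -0.15.

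Pull-down over input within a transfection asks which mRNAs the beads held relative to the lysate they came from. On the miR-491-5p beads 2 members were called higher, XRN1 and PATL1, where 5.34% of all genes were, and 0 members were called lower, where 4.96% of all genes were. On the control beads 4 members were called higher, LSM14A, DDX6, XRN1 and PUM2, against 8.61% of all genes, and LSM1 was called lower, against 10.0% of all genes. The medians of the 35 were -0.13 and -0.03, and that of all genes was -0.15 with each miRNA. With the miR-491-5p input under the control beads, 2 members remained higher, LSM14A at 1.34 and DDX6 at 1.09, while PUM2 fell short of 2-fold at 0.94 and XRN1 at 0.72. The share of all genes called in this setting is not given here. The control ratio then changed sign for 6 members: CNOT6L (0.47 to -0.16), PARN (0.05 to -0.47), EDC3 (-0.10 to 0.22), PATL1 (-0.51 to 0.04), LSM14B (-0.03 to 0.18) and UPF1 (-0.24 to 0.11). DCP2 went from 0.63 to 0.08 and ZFP36L2 from 0.20 to 0.02.

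XRN1, at chr3:142306607-142448062 on the minus strand, was the member held by both beads at 2-fold or more. Its normalised count was 4216 before and 8938 on the beads with miR-491-5p, and 3248 before and 6929 on the beads with the control. Both pull-downs lay above both inputs. The bead ratio was 1.08 (1.03 to 1.14) for miR-491-5p, against 1.09 (1.03 to 1.16) for the control, or 0.72 for the control over the miR-491-5p input. XRN1 has 11982 exonic bases, and with the median of genes of like length subtracted the ratios were 1.04 and 0.88, the latter under 2-fold. In edgeR's quasi-likelihood test over both transfections, with the transfection as a block and Benjamini-Hochberg adjustment over all genes, XRN1 was 1.09 higher on beads (SE 0.22, adjusted p = 0.0205), and its adjusted p was 0.00115 to 0.0278 over the alternatives tried. This was the 1 member called higher at 2-fold in that test, against 4.26% of all genes, and 0 members were called lower, against 5.21% of all genes. The count of 0 lower compares with 7 members in either direction at an unadjusted p under 0.05, and DESeq2 gave 0 as well. The test has 1 residual degree of freedom and pairs different miRNAs, so it speaks only to what the beads share. The nuclear RNAs MALAT1, NEAT1 and KCNQ1OT1 were also higher on the beads, by 1.17, 1.26 and 2.07 for miR-491-5p, against 1.38, 1.13 and 2.07 for the control, and their part in these ratios was not tested.

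LSM1, the subunit that distinguishes the cytoplasmic LSM ring, went the other way. Its normalised count was 1352 in input and 706 in pull-down with miR-491-5p, against 1393 in input and 674 in pull-down with the control. Both inputs lay above both pull-downs. The edgeR estimate was -0.99 (SE 0.23, adjusted p = 0.0261), just short of 2-fold, and with total counts as library sizes it was -0.76 with an adjusted p of 0.0891. LSM1 has 1690 exonic bases, in the shortest of 4 equal length classes of all genes, and that class had a median bead ratio of -0.40 on the miR-491-5p beads and -0.50 on the control beads, while the longest class had 0.02 and 0.12. With the median of genes of like length subtracted, LSM1 was at -0.44 and -0.39. It also shares 38.5% of its exonic bases with other genes. CNOT7 and CNOT10 were lower on both beads as well, at -0.97 and -0.60 for CNOT7 and -0.59 and -0.81 for CNOT10, and missed the threshold of the edgeR test (adjusted p = 0.0613 and 0.0598). With DESeq2 the adjusted p of CNOT7 was 0.0376.

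All 7 genes grouped as the CCR4-NOT core lay below 0 on the miR-491-5p beads, from -0.59 to -0.06, as did 60.2% of all genes. However, 5 of the 7 (CNOT1, CNOT2, CNOT4, CNOT9 and CNOT11) changed sign when scaled by total counts. Of all genes, 39.8% lay above 0 on these beads with the size factors and 62.6% with total counts. On the control beads 6 of the 7 lay below 0 under either scaling, against 57.9% of all genes with the size factors, CNOT4 being above at 0.63. None of the 7 passed the edgeR test.

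**Figure D3:**
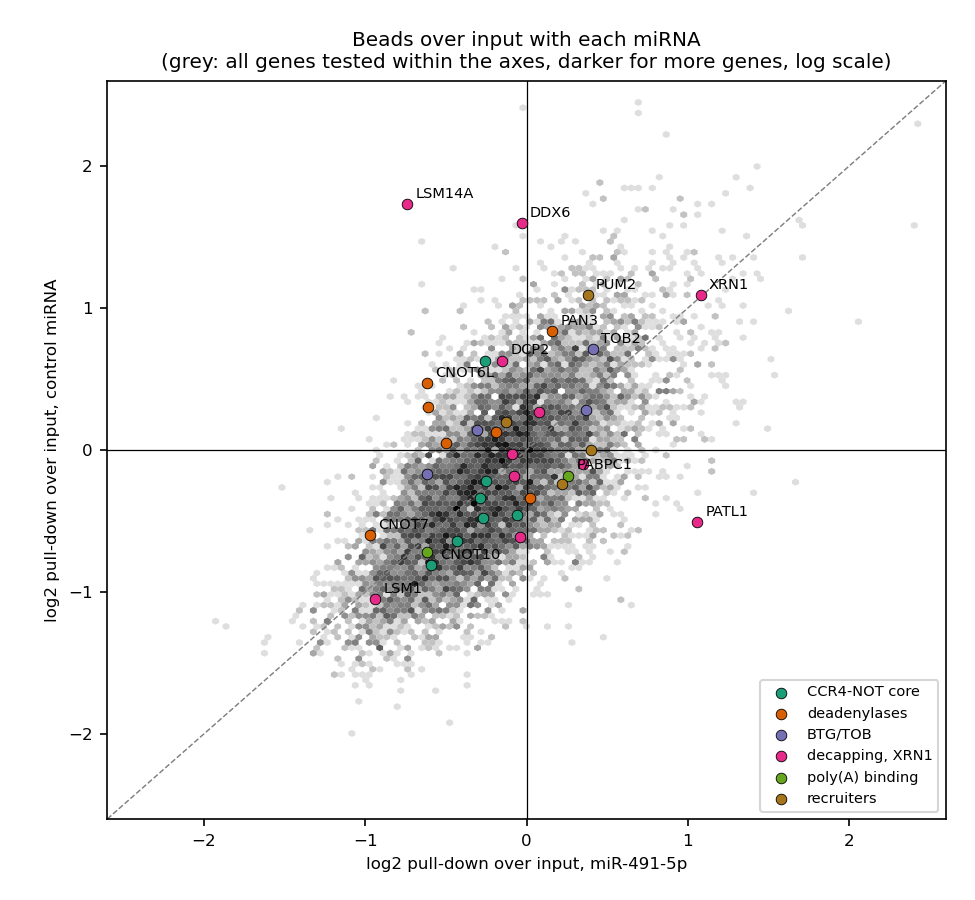
Log2 pull-down over input for the miR-491-5p pair (horizontal) and the control pair (vertical), with the 35 genes as coloured points by role, all genes tested in grey and equality as a dashed line. XRN1 lies on the line at 1.08 and 1.09, LSM1 lies low with both, LSM14A and DDX6 lie far above the line, and PATL1 lies far below it.

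The bead ratios had opposite signs, with both intervals excluding 0, for 12 of the 35 genes, against 14.0% of all genes. They were CNOT4, CNOT6, CNOT6L, CNOT8, TOB1, DCP2, DDX6, PATL1, LSM14A, PABPC1, ZFP36L2 and UPF1. The count was again 12 when scaled by total counts, against 14.9% of all genes, but 6 of the 12 were then others. Read number, which narrows these intervals, was not matched between the members and all genes, so the shares are not like for like. Across genes the bead ratios correlated with r = 0.26 over the 35 members and 0.60 over all 12662 genes. The points share libraries, depth and size factors, and no p-value is given.

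The parts of the enrichment also differed in direction. A pull-down ratio above 0 with an input ratio below 0, both with intervals that exclude 0, was seen in 6 members (CNOT2, EDC3, EDC4, PATL1, PABPC1 and UPF1), against 12.6% of all genes. The reverse, less in the pull-down and more in the input, was seen in 9 members (CNOT4, CNOT6, CNOT6L, CNOT7, DCP2, DDX6, LSM14A, ZFP36L2 and PUM2), against 14.1% of all genes. Scaled by total counts the numbers were 10 (19.2% of all genes) and 8 (9.63%). Here too the members and all genes were not matched for read number, on which the intervals depend. The pull-down and input ratios, which share no library but come from the same lysates, correlated across genes with r = -0.41 over the 35 members and -0.09 over all genes.

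Several members come as paralog pairs, and 8 pairs were set side by side. LSM14A and LSM14B differed by more than 2-fold in the enrichment, in the pull-down ratio and on the control beads, and no other pair did so in any comparison. With miR-491-5p, LSM14A exceeded LSM14B in TPM by 1.97-fold in input and 1.26-fold in pull-down, and with the control by 1.31-fold and 4.42-fold. The difference of their enrichments was -2.40 (-2.52 to -2.29), and that of their control bead ratios was 1.75 (1.68 to 1.83). CNOT6 and CNOT6L, by contrast, had enrichments only 0.18 apart (0.08 to 0.29), and those of CNOT7 and CNOT8 could not be told apart by counting error (-0.06, -0.16 to 0.05). The pull-down over input ratio of CNOT7 was below that of CNOT8 on both beads, by log2 differences of -0.78 and -0.73, and that of TOB1 below that of TOB2, by -0.71 and -0.57, while in TPM CNOT7 exceeded CNOT8 in every library. DCP1A exceeded DCP1B by 10.2-fold (miR-491-5p) and 12.3-fold (control) in TPM in the inputs, and PABPC1 exceeded PABPC4 by 7.64-fold and 6.70-fold. ZFP36L1 and ZFP36L2 differed in their input ratios by -0.66 (-0.72 to -0.61): in TPM they stood at 119 and 184 in the miR-491-5p input and at 167 and 164 in the control input.

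**Figure D4:**
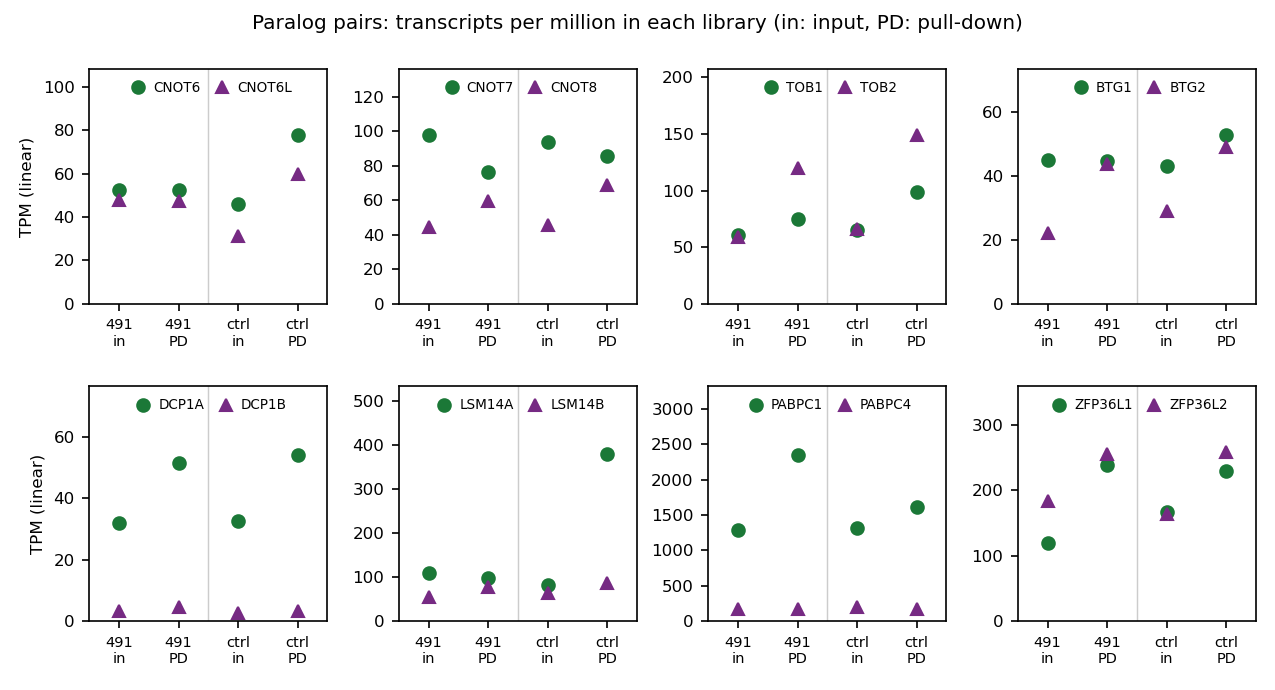
TPM (linear axis from 0) of 8 paralog pairs in each of the 4 libraries, 1 library per point. LSM14A and LSM14B are within 1.97-fold in 3 libraries and 4.42-fold apart in the control pull-down, and DCP1A stays far above DCP1B in all 4.

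Other genes of mRNA decay were taken as lists: partners of the decay enzymes, nonsense-mediated decay and the exosome, of which 71 of 76 were measured. In the enrichment 1 of the 71 was called higher, against 4.46% of all genes, and 5 lower, against 5.32%. The median of the 71 was -0.01. Higher was DXO, which removes faulty caps, at 1.22 (0.66 to 1.78), with a pull-down ratio of 1.18. Its values rest on 144 (input) and 143 (pull-down) reads for miR-491-5p, and 121 (input) and 57 (pull-down) for the control. Lower was YTHDF2, a reader of methylated adenosine that recruits CCR4-NOT, at -3.45, with normalised counts of 10390 (input) and 9733 (pull-down) for miR-491-5p, and 5164 (input) and 52836 (pull-down) for the control. As with LSM14A and DDX6, the control pull-down was the high library. PAIP1, which binds PABPC1, was at -2.53, CPEB2 at -1.71 and RC3H2 at -1.60. The fifth, PAIP2B, at -1.12 (-1.6 to -0.65), was named after its value was seen. It rests on 200 (input) and 114 (pull-down) reads for miR-491-5p, and 120 (input) and 168 (pull-down) for the control. Without the control input, YTHDF2 was at -2.44 and PAIP1 at -2.11, both still called lower. CPEB2 was then at -0.90, RC3H2 at -0.68 and PAIP2B at -0.69, all under 2-fold and not called. The input ratios of CPEB2, RC3H2 and PAIP2B were 0.81, 0.92 and 0.44. In the edgeR test 2 of the 71 were higher on beads, against 4.26% of all genes, and 6 lower, against 5.21%. Called on both beads were GIGYF1, a translational repressor (1.05 and 1.32, adjusted p = 0.0193), and, in the other direction, LSM3 of the LSM ring (-1.23 and -1.0, adjusted p = 0.0216) and PAIP2, an inhibitor of PABPC1 (-1.13 and -1.11, adjusted p = 0.0195). Of all 12662 genes, 337 were called higher and 360 lower on both beads. Scaled by total counts, the bead ratios of LSM3 (-0.91 and -0.86) and PAIP2 (-0.81 and -0.97) were under 2-fold. With like lengths subtracted so were LSM3 on the control beads (-0.71) and PAIP2 on both (-0.86 and -0.72). The other LSM genes listed, named after their values were seen, were also lower in the edgeR test at any fold. In all, 14 of the 71 were lower in that test at any fold, against 10.1% of all genes. LSM2, LSM6 and LSM7, with 1077, 2605 and 1698 exonic bases, are in the shortest length class. Values of these other LSM genes with like lengths subtracted or scaled by total counts are not given here. The edgeR estimates were -1.15 for LSM2, -0.90 for LSM4, -1.03 for LSM5, -0.79 for LSM6 and -1.15 for LSM7 (adjusted p = 0.0209 to 0.0476).

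The 7 Argonaute and TNRC6 genes, whose proteins stand between a miRNA and the decay enzymes, had median bead ratios of 0.63 for miR-491-5p, against 1.45 for the control. The families differed. AGO1, AGO2, AGO3 and AGO4, named after their values were seen, had 0.20, 0.63, 0.40 and 0.53 on the miR-491-5p beads. On the control beads they had -0.35, -0.0, 0.22 and 1.45, for enrichments of 0.55, 0.63, 0.19 and -0.92. TNRC6A, TNRC6B and TNRC6C had 2.17, 2.10 and 1.95 on the miR-491-5p beads, against 3.78, 4.21 and 3.68 on the control beads, and adjusted p-values in the edgeR test of 0.00946, 0.0169 and 0.00946. The TNRC6 enrichments were -1.61, -2.11 and -1.72, so 3 of the 7 genes in that list were called lower, against 5.32% of all genes. No member of the 35 had a bead ratio as large as the lowest of these TNRC6 values: the largest was 1.73, for LSM14A on the control beads.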

How the data were processed

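The authors deposited raw read counts for each gene. Per the file headers they used featureCounts 1.5.0-p1 with a GENCODE 24 annotation of hg38, and a command that ignores strand and drops duplicates and reads that fit several places, so antisense, overlapping and near-identical genes are uncertain. The submitters' processing notes also name STAR and DESeq2 1.10.1. Genes were named by their position among RefSeq genes on GRCh38.p14, with a joint overlap of at least 0.4 and 0.1 above the next. The overlap was 0.518 for PABPC1, whose GENCODE model is longer, and at least 0.928 for the other members.

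Counts were divided by DESeq2 1.42.0 size factors, and log2 ratios taken on normalised counts plus 1, for genes with a mean of at least 50. Counting errors add 0.5 to each count and intervals span 1.96 standard errors on each side. Percentiles are over the 12662 genes. Bead against input counts were tested with edgeR 4.0.16 (R 4.3.3), a fit tried on simulated data first. Its p-values rest on how far the bead ratios differ between the transfections, which hold different miRNAs, and not on a spread between replicates. The members and lists were chosen with earlier results of these data known. All members are named; of other decay genes, those called in the enrichment or on both beads, up to 8 by each. Alternatives were total-count and TMM scaling, other count minimums, a pseudocount of 5, a 1.5-fold call, subtraction of the median of 20 length bins, and other forms of the edgeR fit. Using the miR-491-5p input for both pull-downs was added after seeing the data.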

Additional observations from a re-analysis of the deposited data

Results flagged for a closer look

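For 12 genes, pull-down over input lay above 0 with one miRNA and below 0 with the other, each with a counting interval that excluded 0. The values are the log2 difference, miR-491-5p minus control, which equals the enrichment. With 1 library per group the difference was not tested. Of all genes 14.0% show the same, but they were not matched for read number, on which the intervals depend. Above 0 with miR-491-5p were PATL1 (difference 1.57), UPF1 (0.46) and PABPC1 (0.44). Above 0 with the control were LSM14A (-2.47), DDX6 (-1.63), CNOT6L (-1.09), CNOT6 (-0.91), CNOT4 (-0.89), DCP2 (-0.78), TOB1 (-0.45), ZFP36L2 (-0.33) and CNOT8 (-0.32). DDX6 was at -0.03 with miR-491-5p, close to 0, and at 1.60 with the control. When scaled by total counts, CNOT6, CNOT6L, PATL1, LSM14A, PABPC1 and UPF1 kept opposite sides, and the miR-491-5p values of CNOT4, CNOT8, TOB1, DCP2, DDX6 and ZFP36L2 changed sign. With the miR-491-5p input under the control pull-down, 3 of the 12 changed side in the control ratio and then lay on one side of 0 with both miRNAs: CNOT6L at -0.16, PATL1 at 0.04 and UPF1 at 0.11.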

How the results depend on the processing

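No value under an alternative reversed a call. Calling at 1.5-fold gave 8 members lower in the enrichment (14.0% of all genes), 5 lower in the pull-down ratio (10.7%), 1 higher in the input ratio (3.44%), 8 lower on the miR-491-5p beads (20.8%), and 8 higher (17.7%) and 6 lower (26.9%) on the control beads. Scaling by total counts left 1 member lower in the pull-down ratio and 0 lower on the control beads, where 263 and 820 of all 12662 genes were called lower. It moved the share of all enrichment calls that were higher from 45.6% to 66.6%, that of pull-down calls from 44.0% to 66.5%, that on the miR-491-5p beads from 51.8% to 90.8% and that on the control beads from 46.2% to 62.6%. Subtracting the median of genes of like length gave 1 member lower on the miR-491-5p beads, CNOT7 at -1.01, and 0 lower on the control beads. With the miR-491-5p input used for both pull-downs, chosen after seeing the data, 2 members were higher on the control beads. For either of these settings, length or input, the share of all genes called is not given here. In the bead test, an adjusted p under 0.05 with no fold gave 1 member lower, LSM1 (10.1% of all genes), and leaving out either transfection (values with no test) gave 2 to 4 members higher and 0 to 1 lower. TMM scaling, other count minimums and a pseudocount of 5 kept every count of called members within 1.5 times. In the edgeR test, total counts added TOB2 (adjusted p = 0.0393) and PUM2 (0.0350) at any fold, no block added CNOT7 (0.0412) and CNOT10 (0.0444), and no count minimum added CNOT7 (0.0297), DDX6 (0.0285) and PUM2 (0.0471). The shares of all genes at any fold in these fits are not given here. The causes were not tested. Pairing was by lysate, as the block of the bead test; with a single library per group there were no replicate numbers to pair. The edgeR standard errors of the members, 0.21 to 0.51, were far above the counting errors of the mean bead ratio, with a median of 0.021.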
